A study of Mus musculus with 2 samples.

Results

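Fatty acid synthesis, elongation and desaturation were followed in P12 optic nerve through 10 genes, fixed by name as *Fasn*, *Acaca*, *Scd1*, *Scd2*, *Elovl1*, *Elovl5*, *Elovl6*, *Elovl7*, *Fads1* and *Fads2*. All 10 had a row in both RNA-seq libraries, out of 23853 gene symbols with a usable value in both. One library was made from control mice (Tcf7l2 c/+; OLig1-cre) and the other from mutant mice (Tcf7l2 c/c; OLig1-cre), which the study calls *Tcf7l2*ΔHMG. Both genotypes therefore carry the Cre transgene and at least 1 conditional allele, and the control has 1 intact copy of *Tcf7l2*. Cre expressed from *Olig1* removes the exon for the HMG box, the DNA-binding part of Tcf7l2, within the oligodendrocyte (OL) lineage. Whether the other cells of the nerve keep this exon is not given in the sources used here. The deletion is in frame, and the study detected the shortened protein, but not the full-length one, in mutant spinal cord. It also reported loss of the exon in transcripts of OL precursor cells from mutant neonates. A shortened transcript may thus still be made in the nerve. The level over the whole gene, 17.8 (control) and 14.6 FPKM (mutant), therefore checks nothing about the deletion. FPKM is the number of fragments per kilobase of transcript and per 1000000 mapped fragments. With 1 library per genotype and the number of mice in each not given, no gene was tested. A gene is counted as altered below when its FPKM differed by a fold change above 1.5, and "rose" and "fell" are kept for such genes. The interval given beside an FPKM is that of Cufflinks, which covers sampling within 1 library and not the variation between animals.

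Fatty acids are built in the cytosol from acetyl-CoA. Acetyl-CoA carboxylase, the product of *Acaca*, makes malonyl-CoA, and fatty acid synthase, the product of *Fasn*, joins these units into palmitate. Elongases of the endoplasmic reticulum then lengthen the chain and desaturases place double bonds in it, Scd enzymes to give monounsaturated and Fads enzymes to give polyunsaturated fatty acids. Myelin is a lipid-rich membrane with much monounsaturated and very-long-chain fatty acid, and OLs make most of it themselves while they myelinate.

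The mutant level was below that of the control for 8 of the 10 genes and above it for 2, *Fads1* and *Fads2*, whose direction turned on 1 other scale described with them. Of 14199 genes that reached an FPKM of 1 in either library, 45.4% were lower in the mutant. The median log2 ratio of mutant to control was -0.31 over the 10 genes and 0.05 over all tested genes, computed after 0.1 was added to each FPKM. Among the 10 genes 3, the elongases *Elovl1*, *Elovl6* and *Elovl7*, fell by a fold change above 1.5, as did 8.52% of all tested genes. None of the 10 rose by that much, as 15.4% of all tested genes did. The intervals of both libraries lay apart for 7 of the 8 lower genes, all but *Acaca*, and for both higher genes. Such a gap is common in these deep libraries, since 22.3% of all tested genes were lower and 30.0% higher with intervals apart. For *Scd1*, *Scd2*, *Elovl1*, *Elovl5* and *Fads1* the FPKM also lay outside its own interval in at least 1 library. In whole nerve, a lower level can come from fewer OLs or from less of the transcript in each, and these cannot be told apart.

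**Figure D1:**
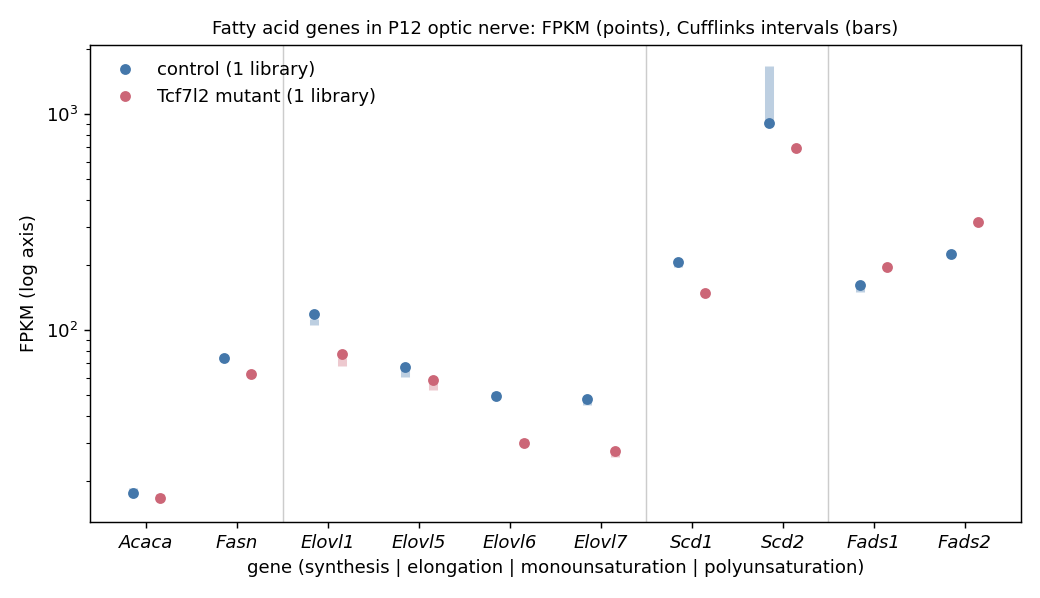
FPKM (log axis) of the 10 genes in the control and the *Tcf7l2*ΔHMG library, with the Cufflinks interval of each value as a pale bar, which is hidden by the point for most genes. The mutant point lies below the control point for all genes except *Fads1* and *Fads2*, which turn on the scale of all rows, and the long bar above the control point of *Scd2* runs from 908 to 1656 FPKM.

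On the reported FPKM, the 3 elongases that fell had the lowest log2 ratios of the 10 genes, whereas *Elovl5* differed less than all but *Acaca*. *Elovl7*, whose product lengthens saturated long-chain fatty acids, was measured at 47.8 FPKM in the control library (interval 45.1 to 48.4) and 27.6 FPKM in that of the mutant (26.0 to 28.0). Its log2 ratio of -0.79 was the lowest of the 10 genes on the reported FPKM (at interval midpoints *Scd2* was lower, at -0.92), and 5.44% of all tested genes had a lower one. *Elovl6*, whose product turns palmitate into stearate, stood at 49.7 FPKM in the control (48.8 to 51.6) and 30.0 FPKM in the mutant (29.3 to 31.2), a log2 ratio of -0.73. *Elovl1*, which makes saturated and monounsaturated very-long-chain fatty acids for sphingolipids, went from 119 to 77.2 FPKM, a log2 ratio of -0.62 that lies just past the cutoff. For *Elovl1* the FPKM lay above its own interval in both libraries (105 to 113 in the control, 68.3 to 73.9 in the mutant). The midpoints of these intervals gave the same log2 ratio of -0.62. The row of *Elovl1* also overlaps the end of that of *Cdc20*, a cell cycle gene listed at 0 in the control and at 12.6 FPKM in the mutant. Whether fragments at this overlap were assigned alike in both libraries was not tested. *Elovl5*, which lengthens polyunsaturated fatty acids, stayed within the cutoff, with 67.1 and 58.4 FPKM in control and mutant (log2 ratio -0.20). Its FPKM, too, lay above its interval in both libraries. The summed FPKM of the 4 elongases in the mutant was 68.1% of that in the control.

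The files place the elongases, on build mm9 and at the same position in both libraries, at chr4:118100698-118105557 (*Elovl1*), chr9:77765172-77832326 (*Elovl5*), chr3:129235304-129341411 (*Elovl6*) and chr13:109004598-109077301 (*Elovl7*). RefSeq promoter windows of 300 bases (250 before and 50 after the start site, build GRCm38.p6) were at hand for 7 of the 10 genes, and not for *Scd1*, *Scd2* and *Fads1*. They are shown for the 3 genes that fell, *Elovl1* with both of its start sites, and for *Fads2*, the gene with the largest difference in the other direction. Capitals mark 2 motifs searched on both strands, the core of the TCF/LEF motif, TCAAAG, which the HMG box of Tcf7l2 reads, and the Sp1 box, GGGCGG, with its reverse complement. The windows lie at chr4:118427843-118428142 and chr4:118429451-118429750 (*Elovl1*), chr3:129532136-129532435 (*Elovl6*) and chr13:108214154-108214453 (*Elovl7*), all on the plus strand, and at chr19:10101454-10101753 on the minus strand (*Fads2*).
Elovl1, first start: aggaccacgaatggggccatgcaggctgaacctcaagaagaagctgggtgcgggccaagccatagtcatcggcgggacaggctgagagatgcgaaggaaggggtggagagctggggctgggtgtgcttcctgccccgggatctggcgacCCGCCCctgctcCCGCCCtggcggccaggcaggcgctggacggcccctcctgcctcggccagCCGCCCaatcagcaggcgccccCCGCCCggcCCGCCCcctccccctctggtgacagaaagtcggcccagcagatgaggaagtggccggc
Elovl1, second start: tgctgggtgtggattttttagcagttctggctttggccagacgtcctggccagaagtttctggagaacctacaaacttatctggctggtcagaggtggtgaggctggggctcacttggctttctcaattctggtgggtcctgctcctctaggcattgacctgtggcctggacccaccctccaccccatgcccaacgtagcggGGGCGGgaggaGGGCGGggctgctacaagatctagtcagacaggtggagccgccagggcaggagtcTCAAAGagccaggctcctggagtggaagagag
Elovl6: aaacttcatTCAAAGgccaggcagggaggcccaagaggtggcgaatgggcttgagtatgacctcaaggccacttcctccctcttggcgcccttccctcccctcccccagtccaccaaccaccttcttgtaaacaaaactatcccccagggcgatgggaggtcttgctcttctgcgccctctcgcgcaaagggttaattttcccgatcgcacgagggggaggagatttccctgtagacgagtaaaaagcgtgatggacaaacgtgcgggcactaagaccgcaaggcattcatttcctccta
Elovl7: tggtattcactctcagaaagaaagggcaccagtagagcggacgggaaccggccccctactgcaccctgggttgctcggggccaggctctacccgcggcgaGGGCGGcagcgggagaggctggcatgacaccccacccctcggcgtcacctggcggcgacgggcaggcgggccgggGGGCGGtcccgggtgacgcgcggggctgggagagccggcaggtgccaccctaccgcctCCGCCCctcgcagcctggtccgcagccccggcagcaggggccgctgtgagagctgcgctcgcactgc
Fads2: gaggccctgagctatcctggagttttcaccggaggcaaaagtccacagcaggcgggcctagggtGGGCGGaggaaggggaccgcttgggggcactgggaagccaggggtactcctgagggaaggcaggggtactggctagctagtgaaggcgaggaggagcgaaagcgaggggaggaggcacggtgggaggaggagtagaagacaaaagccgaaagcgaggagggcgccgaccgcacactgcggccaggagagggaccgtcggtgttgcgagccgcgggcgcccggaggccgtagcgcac
The TCF/LEF core occurred in the windows of 2 of the 7 genes, *Elovl6* at -241 and the second start of *Elovl1* at 19, counted from the start site. Of all 27025 genes with such a window, 18.2% held it. The Sp1 box occurred in 3 of the 7, *Elovl1*, *Elovl7* and *Fads2*, and in 38.2% of all genes. NF-Y boxes (CCAAT, or ATTGG on the other strand) were found for *Fasn*, *Elovl1* and *Elovl5*, or 3 of the 7 and 41.1% of all genes, and an E-box (CACGTG) for *Elovl5* alone, against 8.09% of all genes. None of the 7 held the sterol regulatory element TCACNCCAC, present in 1.44% of all genes, or a Sox core (ACAAAG or AACAAT), present in 30.0%. A match is only a description of these letters, and the lack of one covers only this window.

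Both genes of *de novo* synthesis differed little. *Fasn* was measured at 73.9 FPKM in the control (73.5 to 76.3) and 62.6 FPKM in the mutant (62.4 to 64.5), a log2 ratio of -0.24. It lies at chr11:120667272-120685861 on mm9 in both libraries. *Acaca*, the lowest of the 10 genes, had 17.7 FPKM in the control (17.2 to 18.5) and 16.8 FPKM in the mutant (16.4 to 17.5). Its log2 ratio was -0.08 with overlapping intervals, and 37.2% of all tested genes had a lower ratio. The row of *Acaca* started at 83993393 on chromosome 11 in the control and at 83943210 in the mutant, so the transcripts assembled for it did not span the same stretch. What this adds to its ratio was not tested.

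Both Scd genes among the members, *Scd1* and *Scd2*, whose products make monounsaturated fatty acids, were lower in the mutant but within the cutoff on the reported FPKM. *Scd1* went from 206 to 149 FPKM, a log2 ratio of -0.47, and 12.03% of all tested genes had a lower one. In the control its row came from the reference gene model and the FPKM lay above the interval of 195 to 202, whereas in the mutant an assembled row was given, with the FPKM inside its interval of 148 to 153. The midpoints of the intervals gave a log2 ratio of -0.40. *Scd2*, the main Scd gene of brain, had the highest level of the 10 genes in both libraries, 901 and 691 FPKM in control and mutant. In the control only 0.239% of all tested genes had a higher FPKM. Its log2 ratio was -0.38, but its row is not the same in both libraries. In the control it was merged with *Mir5114* and spanned chr19:44332132-44381352, and in the mutant it was merged with *Mir5114* and *Scd4* and spanned chr19:44368166-44421233. The interval was 908 to 1656 FPKM in the control, above the FPKM itself, and 673 to 683 FPKM in the mutant, where the FPKM exceeded it. Taken at the midpoints of these intervals, *Scd2* had a log2 ratio of -0.92, which passes the cutoff. The Scd genes are close paralogs side by side on chromosome 19, and how fragments matching more than 1 of them were shared out is not given in the sources used here.

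*Fads1* and *Fads2*, whose products place the double bonds of polyunsaturated fatty acids, were the members with a higher level in the mutant on the deposited scale, and with a lower one on the scale of all rows. *Fads2*, which catalyses the first step of this route, was measured at 225 FPKM in the control (223 to 232) and 316 FPKM in the mutant (311 to 324). The log2 ratio of 0.49 is a fold change of 1.41, and 18.9% of all tested genes had a higher ratio. *Fads1* had 162 FPKM in the control, above its interval of 150 to 157, and 196 FPKM in the mutant (196 to 203), a log2 ratio of 0.28. A microRNA row inside it, *Mir6993*, was listed at 0 in the control and at 151 FPKM in the mutant. The interval midpoints gave 0.37 for *Fads1* and 0.48 for *Fads2*. Both genes lie on chromosome 19 of mm9, *Fads1* at 10257378-10271362 in both libraries and *Fads2* at 10137152-10176232 in the control. In the mutant the row of *Fads2* began at 10135203, next to the third gene of the cluster, *Fads3*. *Fads3* was at 13.9 FPKM in the control (12.8 to 14.96) and listed at 0 in the mutant, where its interval reached 0.07. A separate unnamed row of 2.55 FPKM filled the stretch from 10135203 to 10137070 in the control. The part of row assignment in these values was not tested. Both directions depended on the scale, since *Fads1* and *Fads2* had log2 ratios of -0.39 and -0.18 when all rows of each library, named or not, were brought to a common sum. On that scale the median over all tested genes was -0.61, below both.

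**Figure D2:**
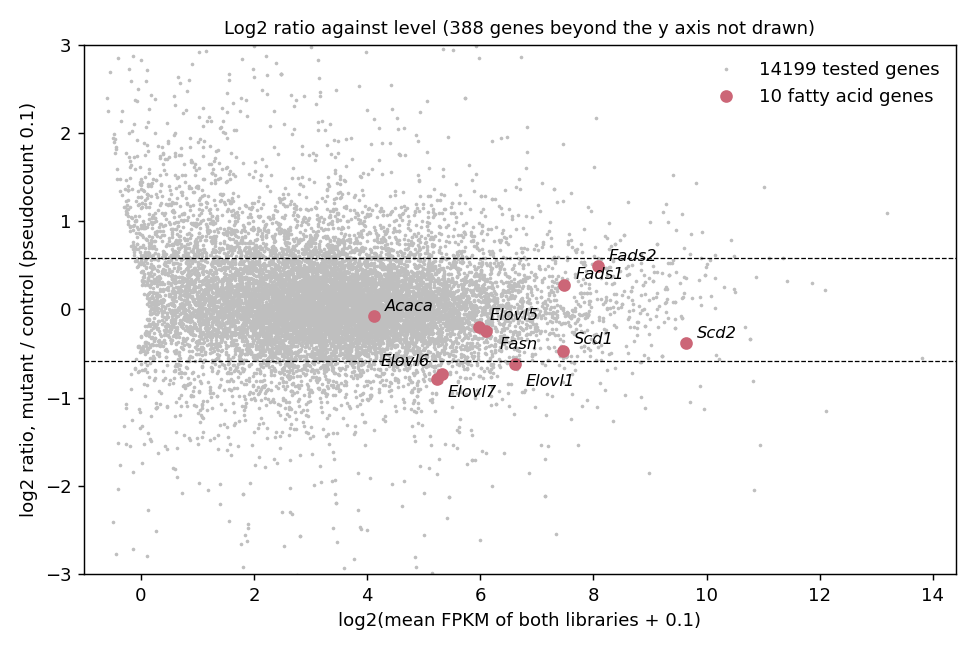
Log2 ratio of mutant to control FPKM (y axis) against the log2 mean FPKM of both libraries (x axis) for 14199 tested genes in grey, with the 10 fatty acid genes in red and dashed lines at a fold change of 1.5. *Elovl1*, *Elovl6* and *Elovl7* lie below the lower line, *Fads1* and *Fads2* lie above 0 within the lines (below 0 when all rows are brought to one sum), and 388 genes beyond the y axis are not drawn.

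The order of the levels, which FPKM allows since it is per length, was almost the same in both libraries. From high to low it was *Scd2*, *Fads2*, *Scd1*, *Fads1*, *Elovl1*, *Fasn*, *Elovl5*, *Elovl6*, *Elovl7* and *Acaca* in the control, and in the mutant *Fads1* stood above *Scd1*. Neighbours in this order had intervals that did not overlap in either library, which covers sampling within 1 library only. For *Scd2*, *Scd1*, *Fads1*, *Elovl1* and *Elovl5* the control FPKM lay outside its own interval, so the gaps do not bracket those values. *Scd2* gave 48.2% (control) and 42.5% (mutant) of the summed FPKM of the 10 genes, and *Fads2* gave 12.03% and 19.5%. The ratio of 2 genes within a library does not depend on how the library was scaled. The pairs given here were chosen after their values had been seen. *Fads2* had 1.09 times the FPKM of *Scd1* in the control and 2.13 times in the mutant. *Fads2* had 4.71 times that of *Elovl7* in the control and 11.5 times in the mutant. Within the elongases, *Elovl6* was at 0.741 (control) and 0.514 (mutant) of the level of *Elovl5*, and *Elovl7* at 0.712 and 0.472. By contrast, *Elovl7* stood at 0.961 (control) and 0.919 (mutant) of the level of *Elovl6*. *Scd2* stood at 4.38 (control) and 4.65 times (mutant) the level of *Scd1*, but its row was not the same in both libraries. At interval midpoints the log2 ratio of mutant to control was -0.92 for *Scd2* and -0.40 for *Scd1*, so there *Scd2* over *Scd1* was lower in the mutant.

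The other genes of the pathway were taken as 5 lists with 52 genes, of which 48 could be tested. Of these, 27 were lower and 21 higher in the mutant, with a median log2 ratio of -0.06. A fold change above 1.5 was passed by 8 lower and 3 higher genes, or 16.7% and 6.25%, beside 8.52% and 15.4% of all tested genes. Of these calls, 3 rest on the rows described above. *Fads3* was listed at 0 in the mutant. *Scd3* and *Scd4* shared 1 row of 24.7 FPKM, overlapping that of *Scd2*, in the control, whereas in the mutant *Scd3* had its own row of 15.5 FPKM and *Scd4* was part of the row of *Scd2*, so their log2 ratios compare different rows. Without these 3 genes, 6 of 45 fell and 2 rose.

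Among the other elongation enzymes, 5 of 8 were lower and 2 fell. *Hsd17b12*, the ketoacyl-CoA reductase that carries out the second step of each elongation cycle, fell from 85.3 to 53.9 FPKM (log2 ratio -0.66), both values lying above their intervals. *Elovl4*, an elongase of very long chains, fell from 12.5 to 7.99 FPKM (log2 ratio -0.64). *Tecr*, the enoyl-CoA reductase of the last step and the most abundant gene of this list, was at 243 and 235 FPKM (log2 ratio -0.05). The dehydratases of the third step, named *Ptpla*, *Ptplb*, *Ptplad1* and *Ptplad2* in the files, had log2 ratios of -0.23, 0.39, -0.21 and 0.57, of which that of *Ptpla* was -0.53 at interval midpoints. *Elovl3* and *Tecrl* were listed at 0 in both libraries.

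Of the other synthesis genes, 4 of 7 were higher. *Thrsp* rose from 61.6 to 109 FPKM (log2 ratio 0.82), but its mutant FPKM lay above its interval, which ended at 92.6 FPKM. At interval midpoints its log2 ratio of 0.52 no longer passed the cutoff. *Mid1ip1*, a related gene, was at 69.5 and 86.1 FPKM (log2 ratio 0.31). Among other desaturases and their electron donors, *Fads6* fell from 2.06 to 1.09 FPKM (log2 ratio -0.86) with intervals of 1.37 to 2.60 and 0.69 to 1.41 FPKM that overlap. *Cyb5a*, the cytochrome that feeds electrons to the desaturases and is named *Cyb5* in the files, was at 219 and 201 FPKM (log2 ratio -0.13), with intervals of 209 to 230 FPKM in the control and 142 to 154 FPKM in the mutant, the latter below its FPKM. At interval midpoints its log2 ratio was -0.57. *Cyb5r3*, its reductase, was at 78.6 and 97.5 FPKM (log2 ratio 0.31).

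Regulators of the pathway moved in both directions, with 6 of 13 lower, 7 higher and a median log2 ratio of 0.04. *Insig1*, which holds SREBP precursors in the endoplasmic reticulum and is itself an SREBP target, fell from 71.3 to 41.6 FPKM (log2 ratio -0.78). *Nr1h3*, the receptor LXR alpha, fell from 6.90 to 3.84 FPKM (log2 ratio -0.83) and *Rxrg*, a retinoid X receptor, from 4.87 to 2.85 FPKM (log2 ratio -0.75). *Rxra* rose from 6.22 to 9.99 FPKM (log2 ratio 0.68). *Srebf2*, which drives mainly cholesterol genes, was at 62.3 and 54.3 FPKM (log2 ratio -0.20). *Srebf1*, which drives mainly fatty acid genes and was added after its values were seen, was at 46.8 and 56.7 FPKM (log2 ratio 0.28). Of the 12 acyl-CoA synthetase and binding protein genes, 8 were lower and none passed the cutoff, although *Fabp7*, named after its values were seen, had a log2 ratio of -0.28 on the reported FPKM and -0.72 at interval midpoints. The most abundant were *Dbi*, an acyl-CoA binding protein, at 1647 and 2117 FPKM (log2 ratio 0.36), and *Fabp5*, a fatty acid binding protein, at 337 and 228 FPKM (log2 ratio -0.57).

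Fatty acid oxidation was taken as the opposite route. Of its 17 genes, 5 were lower and 12 higher, with a median log2 ratio of 0.09, and 16 stayed within the cutoff. Over all tested genes, 54.6% were higher and the median log2 ratio was 0.05, close to that of this list. *Cpt1c*, the carnitine palmitoyltransferase isoform of neurons, rose from 14.5 to 25.2 FPKM (log2 ratio 0.79). Its mutant FPKM lay just above its interval of 22.4 to 25.1 FPKM, and its log2 ratio at interval midpoints was 0.70. *Hadh*, a mitochondrial dehydrogenase, was at 63.0 and 57.6 FPKM (log2 ratio -0.13).

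**Figure D3:**
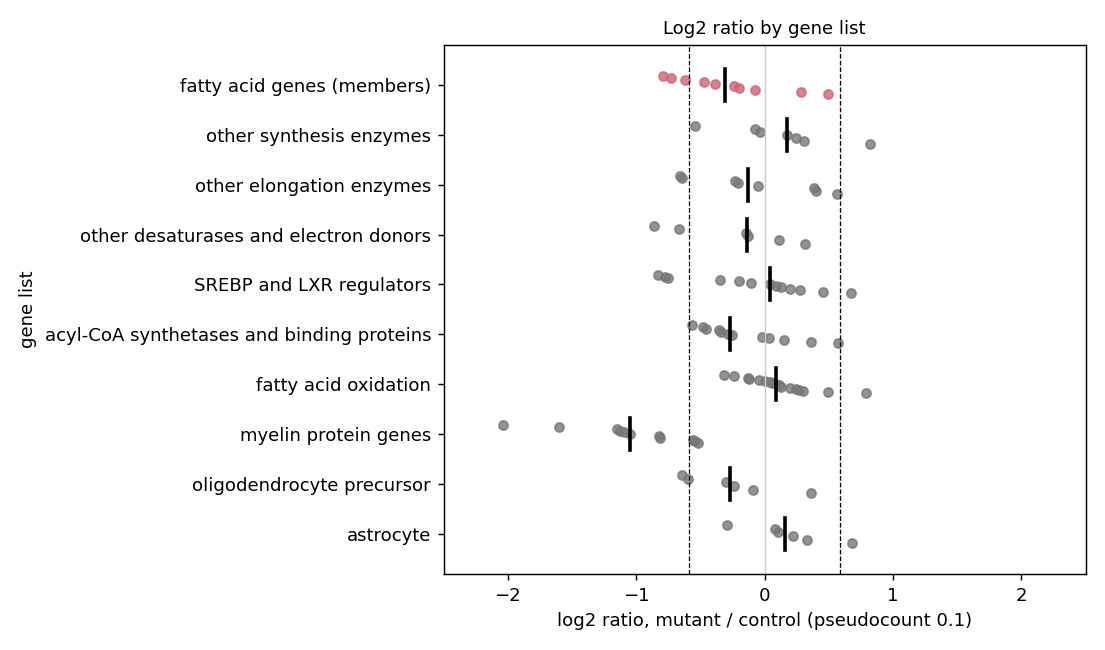
Log2 ratio of mutant to control FPKM (x axis) for the tested genes of 10 gene lists (y axis), with a point per gene, a black bar at each median and dashed lines at a fold change of 1.5. The 10 members (red) have a median of -0.31, near that of acyl-CoA synthetases and binding proteins (-0.27) and of precursor markers (-0.27). It lies between the medians of myelin protein genes (-1.05) and fatty acid oxidation (0.09), and *Fads3* and *Scd4* lie beyond the axis.

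Cell type markers also differed between the libraries, in both directions, and their part in the results was not tested. All 11 myelin protein genes were lower in the mutant and 8 fell, with a median log2 ratio of -1.05. Those that fell included *Mobp* (-2.04) and *Mag* (-1.13), and *Mbp*, the most abundant of the list, had -0.54. No member fell as far as the median of this list, and relative to *Mag*, *Elovl7* was at 0.0349 (control) and 0.0440 (mutant) and *Fads2* at 0.164 and 0.504. Relative to *Mbp*, the order turned for *Elovl7*, at 0.00281 (control) and 0.00237 (mutant), and *Fads2* was at 0.0132 and 0.0271. Summed levels of the myelin list were 32538 and 18650 FPKM. Of 6 precursor markers, 5 were lower and 2 fell (median -0.27). Astrocyte markers summed to 4882 and 5701 FPKM (median 0.16), and relative to *Gfap*, *Fads2* was at 0.0554 and 0.0668 and *Elovl7* at 0.0118 and 0.00583. The log2 ratios of this list ran from -0.29 (*Aqp4*) to 0.68 (*Gja1*), both named after their values were seen. That of *Gja1* exceeded the 0.49 of *Fads2*, so relative to *Gja1* the direction of *Fads2* turned. Microglial markers summed to 219 and 294 FPKM (median 0.39), endothelial markers to 121 and 103 FPKM (median -0.28) and meningeal fibroblast markers to 1447 and 2331 FPKM (median 0.49). All 5 red blood cell genes rose (252 and 631 FPKM, median 1.25), as did the 4 tested neuronal markers from a low level (8.89 and 19.2 FPKM over all 5 listed). Adipocytes also express the synthesis and desaturation genes strongly, and orbital fat borders the nerve. Their 8 listed markers summed to 13.8 and 19.7 FPKM, and the 3 that could be tested had a median log2 ratio of 0.57. *Pnpla2* was at 11.6 and 17.3 FPKM, *Car3* at 0.85 and 1.78 FPKM and *Fabp4* at 1.24 and 0.52 FPKM. *Adipoq*, *Plin1* and *Cidec* were at 0.09 FPKM or less in both libraries, and *Cfd* and *Lep* were listed at 0 in both. Schwann cell markers summed to 7.24 and 6.83 FPKM and skeletal muscle markers to 14.1 and 17.2 FPKM.

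The direction was kept under each of the other settings for all 8 lower members, and for *Fads1* and *Fads2* under all but the common sum of all rows. Leaving that scale aside, log2 ratios ranged from -0.86 to -0.77 for *Elovl7*, from -0.80 to -0.71 for *Elovl6* and from -0.69 to -0.62 for *Elovl1*. *Fads2* ranged from 0.42 to 0.49 and *Fads1* from 0.21 to 0.37. *Scd2* had the widest range, from -0.92 to -0.38, for which the interval midpoints gave the low end.

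**Figure D4:**
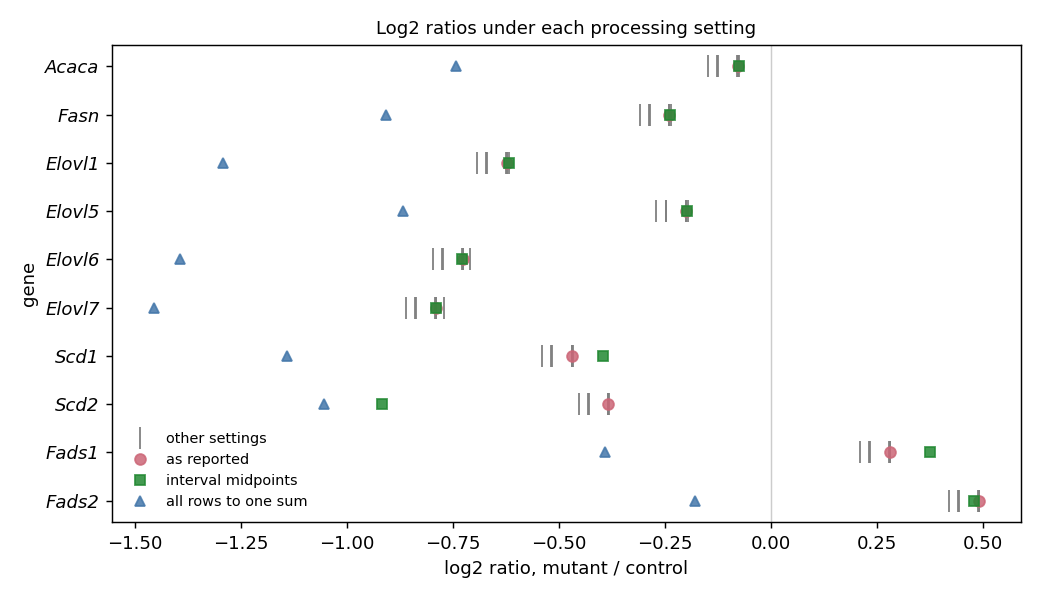
Log2 ratio of mutant to control FPKM (x axis) of the 10 genes (y axis) as reported (circles), from interval midpoints (squares), with all rows of a library brought to one sum (triangles) and under the other settings (ticks). The triangles lie to the left of all other symbols, with *Fads1* at -0.39 and *Fads2* at -0.18, and the square of *Scd2* lies at -0.92.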

How the data were processed

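RNA-seq was available from 1 control and 1 *Tcf7l2*ΔHMG library of P12 optic nerve. Reads were mapped with TopHat at default settings, and the authors computed FPKM with Cufflinks, whose deposited tables give an FPKM, a lower and an upper interval bound and a status per row. The build is mm9 per the submitters' processing notes, and versions, strand handling and multi-mapping settings are not given in the sources used here. Depth was read from the smallest interval bounds, which are whole numbers of fragments (within 0.000811 and 0.000621) at depths of 27624000 (control) and 39938000 (mutant), so 3 fragments on 1 kb are 0.109 and 0.0751 FPKM, a floor for counting error only. Unnamed rows held 70.7% and 80.7% of the summed FPKM.

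Merged names were split, rows of a symbol were summed, and genes of status OK in both tables that reached 1 FPKM in either were kept (14199 of 23853). Log2 ratios used a pseudocount of 0.1, which understates changes of low genes, and genes were counted at a fold change above 1.5. *Cyb5a* was matched as *Cyb5* once the files had been seen. The script was tested on simulated data with set fold changes in unmerged rows only. This does not cover merged rows or rows that differ between the libraries. Members, lists and settings were chosen with earlier results of these data known. Text names all members and, of pathway, oxidation and myelin lists, genes past the cutoff (at most 4 per direction) and the 2 most abundant, some of which are not reported here. Other marker lists are given as counts, medians and sums, and some of their genes are named. Python 3.11.15, numpy 2.4.6, pandas 2.3.3 and matplotlib 3.10.9 were used.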

Additional observations from a re-analysis of the deposited data

Results flagged for a closer look

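Rows of 2 genes outside the comparisons overlap a member and were listed above 0 FPKM only in the *Tcf7l2*ΔHMG library. *Cdc20*, a cell cycle gene whose row overlaps the end of *Elovl1*, was listed at 0 in the control and at 12.6 FPKM in the mutant (interval 10.8 to 13.1). *Mir6993*, a microRNA row of 65 bases inside *Fads1*, was listed at 0 in the control and at 151 FPKM in the mutant. That value is far above its own interval of 0 to 2.70 FPKM, which includes 0. How fragments were assigned to these rows and to those of the members was not tested.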

How the results depend on the processing

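Alternatives were pseudocounts of 1 and 0.01, centring on the median, the 75th percentile, a sum of 1000000 over all or named rows, the highest row per symbol, merged rows left out (no value for *Scd2*), other filters, rows of any status, a fold change above 2 and intervals apart. Interval midpoints and leaving out *Scd2*, or *Scd3*, *Scd4* and *Fads3*, were chosen after seeing the data. The sum over all rows shifted the median of all tested genes by -0.65. It gave -0.39 for *Fads1* and -0.18 for *Fads2*, medians of -0.98 (members) and -0.71 (pathway genes), 8 members and 29 pathway genes lower past the cutoff and 1 higher, beside 52.1% of all tested genes lower and 4.51% higher. Above a fold change of 2, 0 members passed, with 1 pathway gene lower (*Fads3*) and 1 higher (*Scd4*), beside 3.68% and 6.87% of all tested genes. The other 74 medians and counts stayed near their reported value, the counts within 1.5 times. With 1 library per genotype, no setting measures variation between animals.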
